A study of Schizosaccharomyces japonicus with 2 samples.

Results

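Supercontig 5 is a piece of the assembled genome of the fission yeast Schizosaccharomyces japonicus, and this account describes the small RNA that maps to it. Every line placed on supercontig 5 with a mapped span of 21 to 28 nt was taken, and a position was defined as a distinct start, end and strand. Replicate 1 held 19547 such positions with 48469 reads, of 223429 positions with a span of 21 to 28 nt in all. Replicate 2 held 57324 positions with 371481 reads, of 474395. The choice used only the place and the span, not the abundance. The study has 1 group, wild-type cells of strain yFS275 in log phase, sequenced as 2 libraries named replicate 1 and replicate 2, and compared no conditions. RNA of 10 to 40 nt was enriched, and the ligated adapters needed a 5′ monophosphate and a 3′ hydroxyl. Whether separate cultures were used is not stated in the labels, and the spread between replicates may thus be technical.

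In fission yeasts, RNA interference acts on repeated DNA. An RNA-dependent RNA polymerase makes double-stranded RNA, the nuclease Dicer cuts it into duplexes with short 3′ overhangs, and Argonaute keeps 1 strand of each duplex as a guide. In Schizosaccharomyces pombe, a better studied relative, such guides direct methylation of histone H3 at lysine 9 and so the formation of heterochromatin. Reads on both strands, a narrow range of spans and opposite-strand overlaps that leave 3′ overhangs are the features by which such RNA is usually recognised in sequencing data. What the bases of supercontig 5 encode was not analysed here, because the gene table at hand belongs to another assembly, and no genome sequence of the files' build was used.

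In replicate 1, 5.45% of the reads lay on supercontig 5, with a 95% exact binomial (Clopper-Pearson) interval of 5.40 to 5.50. In replicate 2 the share was 15.1% (15.07 to 15.16), which gives a mean of 10.3% ± 6.83 (SD, n = 2). These shares leave out bases 1 to 37000 of supercontig 3, a region with reads on 1 strand that held very different shares of the libraries and is called the block here. With the block kept in the total they were 1.57% and 10.7%, so the difference between the libraries in this share depends on the block. Intervals cover at most counting error. They treat every read as independent, and PCR copies of 1 molecule cannot be told apart, so they may be too narrow. The mapped length of supercontig 5, 93151 bases, is 0.797% of the mapped length outside the block. Its density was 585 RPM (reads scaled so that those outside the block sum to 1000000) per kb in replicate 1 and 1623 in replicate 2. The rest of the genome outside the block had 81.5 and 73.2 RPM per kb, so supercontig 5 was 7.18 and 22.2 times as dense. The first 120 kb of supercontig 4 had 423 and 848 RPM per kb, and supercontigs 6 and 7 had 404 and 625, also far above the rest. Regions were measured in the same 2 libraries, so their values are paired by library. Even a two-sided exact permutation test that ignores this pairing cannot give a p below 0.333. Differences between regions are therefore given as values of both libraries, with no test.

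Of the 94 windows of 1 kb on supercontig 5, 55 were dense (58.5%), meaning 100 RPM or more in each library. Over all windows outside the block 5.18% were dense, and 4.75% of those that are not on supercontig 5. The dense windows held 99.8% and 99.9% of the reads of supercontig 5. Another 34 windows had no read in either library, and 5 had some reads without being dense. Small RNA on supercontig 5 was therefore either plentiful or nearly lacking over stretches of several kb. Among dense windows the median density was 623 RPM on supercontig 5 in replicate 1 and 1734 RPM in replicate 2, against 450 and 916 RPM elsewhere outside the block.

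**Figure D1:**
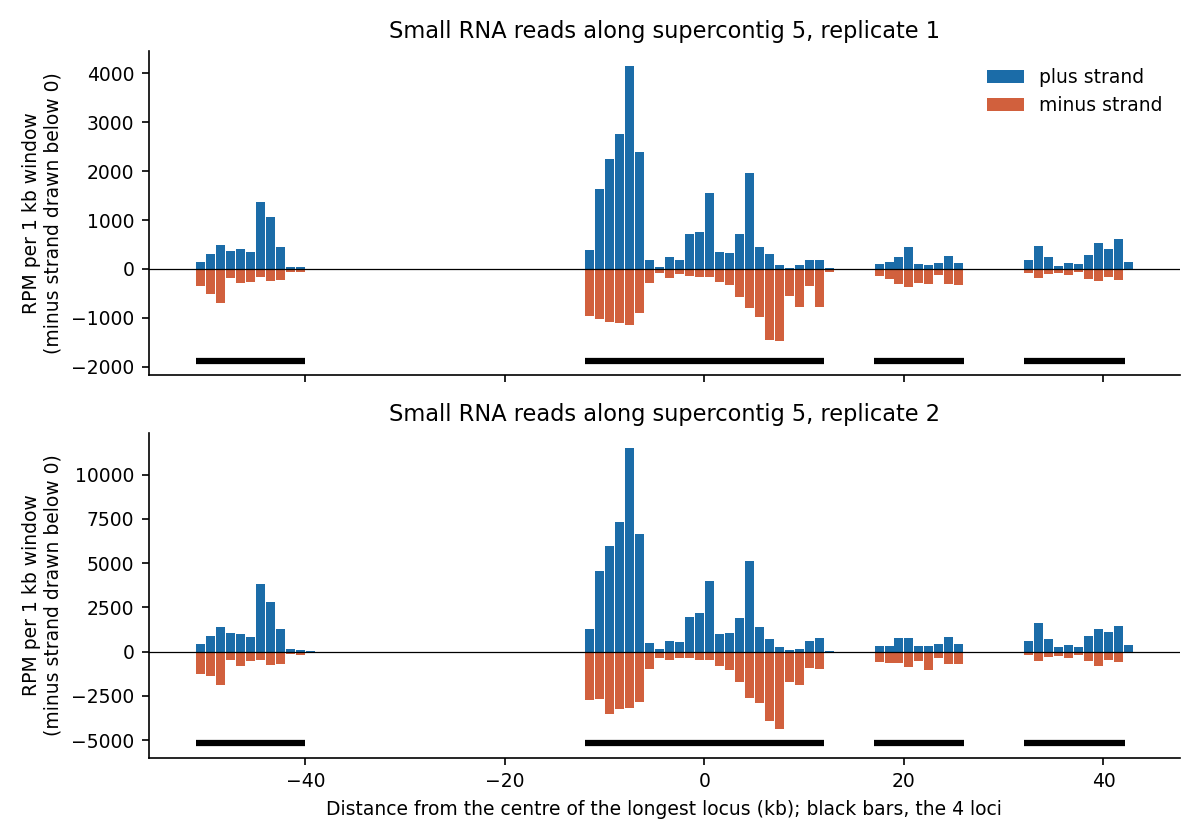
Reads of 21 to 28 nt in windows of 1 kb along supercontig 5, in RPM, with the plus strand above 0 and the minus strand below it, for each library. Horizontal axis, distance from the centre of the longest locus in kb; black bars, the 4 loci. The profile has the same shape in both libraries, with its maximum of 5303 and 14680 RPM (both strands summed) in 1 window of the longest locus.

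Joining dense windows separated by at most 1 other window gave 4 loci. The first locus spanned bases 1 to 11000 and held 14.8% of the reads of supercontig 5 in replicate 1 and 14.7% in replicate 2. The longest locus, bases 39001 to 63000, held 69.0% and 69.3%. Bases 68001 to 77000 formed the third, with 7.36% and 7.05%, and bases 83001 to 93151 the fourth, with 8.63% and 8.73%. The shares of the 4 loci thus differed by at most 0.352 percentage points between libraries whose total share of supercontig 5 differed 2.77 times. The longest locus was also the densest, with 1567 and 4367 RPM per kb, against 734 and 2026 in the first, 446 and 1184 in the third and 463 and 1299 in the fourth.

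Mostly between the loci lay 4 stretches of at least 1 kb without a read in either library, 37823 bases or 40.6% of supercontig 5. The longest ran from base 13201 to 39492 (26292 bases). The others covered bases 63137 to 68377, 76793 to 78886 and 78908 to 83103. Whether these bases carry sequence to which a read could map was not tested, as undetermined bases in an assembly would also show no reads. Outside these stretches, reads of replicate 1 covered 88.0% of the bases and reads of replicate 2 covered 94.9%. Both strands were covered at 51.9% of those bases in replicate 1 and 81.3% in replicate 2, the library with 7.66 times as many reads on supercontig 5. No other stretch without reads was longer than 336 bases.

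Most reads of supercontig 5 had a single best place. A mapping score above 0 was read as such a place, and these reads made up 58.7% (58.2 to 59.1) of replicate 1 and 58.3% (58.1 to 58.4) of replicate 2. Elsewhere outside the block they made up 25.3% and 24.8%. On the first 120 kb of supercontig 4 they were 17.6% and 24.5%, and on supercontigs 6 and 7, 9.86% and 17.2%. Within supercontig 5 this differed by locus. Reads with a single best place made up 60.0% and 58.4% of the first locus and 69.5% and 69.0% of the longest. In the third locus they made up only 4.07% and 4.69%, and in the fourth 18.1% and 17.1%. In 6 dense windows of each library they were 90% or more, and in 19 they were under 10%. Positions in the third locus, most of the fourth, and bases 59001 to 63000 of the longest therefore stand mostly for 1 of several copies. The same held, for example, at bases 1 to 2000, 9001 to 10000 and 45001 to 47000. In the fourth locus, bases 87001 to 89000 and 93001 to 93151 were exceptions, with 75.7% and 68.9% in the last.

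The 5 densest windows by the mean of the libraries all lay in the longest locus. Bases 43001 to 44000 led, with 4715 reads (5303 RPM) in replicate 1 and 36076 reads (14680 RPM) in replicate 2. Of these, 95.2% in each library had a single best place, and 78.5% and 78.3% lay on the plus strand. The neighbouring bases 42001 to 43000 had 3874 and 10527 RPM, 41001 to 42000 had 3317 and 9523 RPM, and 44001 to 45000 had 3295 and 9505 RPM. These 4 windows are adjacent. The fifth, bases 55001 to 56000, had 2758 and 7715 RPM. In all 5 the plus strand held between 62.9% and 78.5% of the reads, and 23 nt led among the spans of each library. On supercontig 5 as a whole, 10 windows held 50% of its reads and 37 held 90%, the same numbers in each library.

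Reads were spread over many positions. The 10 most abundant positions held 2.30% and 2.04% of the reads of supercontig 5, against 11.4% and 3.87% elsewhere outside the block. They held 10.5% and 4.61% on the first 120 kb of supercontig 4 and 19.4% and 6.04% on supercontigs 6 and 7. A position of supercontig 5 had 2.48 reads on average in replicate 1 and 6.48 in replicate 2, and 62.3% and 45.6% of positions had 1 read. The position with the highest mean RPM covered bases 43305 to 43327 on the plus strand (23 nt). It had 132 reads (148 RPM) in replicate 1 and 996 reads (405 RPM) in replicate 2. These came from 10 and 38 distinct sequences aligned to the same bases, of which the leading one held 92.4% and 89.6% of the reads. Bases 55859 to 55880 on the plus strand (22 nt) had 97 and 838 reads, bases 55944 to 55965 (plus, 22 nt) had 100 and 669, and bases 41300 to 41321 (plus, 22 nt) had 76 and 730.

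The remaining position of the leading 5 was seen in 1 library alone. Bases 148 to 170 on the minus strand (23 nt) had 0 reads in replicate 1 and 1029 in replicate 2, where they made up 24.4% of the reads of the first window. In replicate 1 the most abundant position was bases 62264 to 62285 on the minus strand (22 nt). It had 278 reads in replicate 1, or 32.3% of its window, and 25 in replicate 2, or 0.587%. Both have a mapping score of 0, and the place listed for such a sequence can differ between the files, so neither difference can be read as a change of abundance at these bases.

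Strand use changed along supercontig 5. Summed over it, 58.3% of the reads of replicate 1 (57.9 to 58.8) lay on the plus strand. In replicate 2 this was 57.7% (57.5 to 57.9), and the mean was 58.0% ± 0.438 (SD, n = 2). Elsewhere outside the block this was 47.5% and 39.0%. Plus and minus are defined within each supercontig, so this sum over many supercontigs is given as a value only. Of the 55 dense windows, 50 (90.9%) had at least 10% of the reads on the minor strand in both libraries, where the share was 74.9% over all dense windows outside the block and 73.3% over those not on supercontig 5. None of the 55 had less than 1% on the minor strand in both libraries, against 6.77% of all dense windows. The median minor-strand share of a dense window was 32.5% and 33.8% on supercontig 5, and 25.1% and 25.7% elsewhere outside the block. Summed over windows of 1 kb, the minor strand held 28.2% and 29.7% of the reads of supercontig 5, much as on supercontigs 6 and 7 with 28.5% and 30.5%.

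The plus strand held more reads in both libraries in 30 dense windows, the minus strand in 20, and 5 windows differed between the libraries. Many windows of 1 major strand lay in runs, but from base 68001 to 88000 no run was longer than 3 windows. The plus strand held 71.5% and 69.9% at bases 40001 to 45000, and 71.5% and 68.8% at bases 47001 to 56000. Between them, bases 45001 to 47000 had 37.7% and 32.3%. From base 56001 to 63000 only 17.0% and 19.1% lay on the plus strand. The change fell between neighbouring windows. Bases 55001 to 56000 had 71.0% plus in replicate 1 and 66.2% in replicate 2, and bases 56001 to 57000 had 31.4% and 32.2%. Both windows consist mostly of reads with a single best place, for which the plus share was 80.7% and 78.0% in the first and 31.3% and 33.4% in the second. Further along, the plus share was lowest at bases 59001 to 60000, with 4.14% and 4.72%, where almost no read had a single best place.

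In the first locus, the plus share was 37.5% and 37.2% at bases 1 to 3000, and 74.3% and 74.2% at bases 3001 to 9000. The third locus had 40.7% and 41.5% in all. The fourth had 67.6% and 67.2%. The plus share of a window differed between libraries by a median of 2.90 percentage points, and by less than 10 in 53 of 55 dense windows. The largest difference, 23.3 points, was at bases 62001 to 63000, the window of the abundant position of replicate 1 named above. Across the 55 windows, which share libraries and are not independent replicates, the plus shares of the libraries had Pearson r = 0.97 and Spearman rho = 0.97.

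The major strand of a window could depend on the reads with several places. Of 38 dense windows with at least 20 reads of a single best place in each library, the major strand was that of all reads in 30 and differed in at least 1 library in 8. At bases 45001 to 46000, 39.3% and 33.7% of all reads were on the plus strand, but 95.1% and 92.6% of those with a single best place, which were 9.53% and 8.19% of the reads. Bases 73001 to 74000 had 19.9% and 21.0% of all reads on the plus strand, against 88.6% and 87.3% of those with a single best place. These are the extremes. At bases 87001 to 88000 the plus share was 48.4% and 47.6% of all reads, and 54.1% and 53.4% of those with a single best place.

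**Figure D2:**
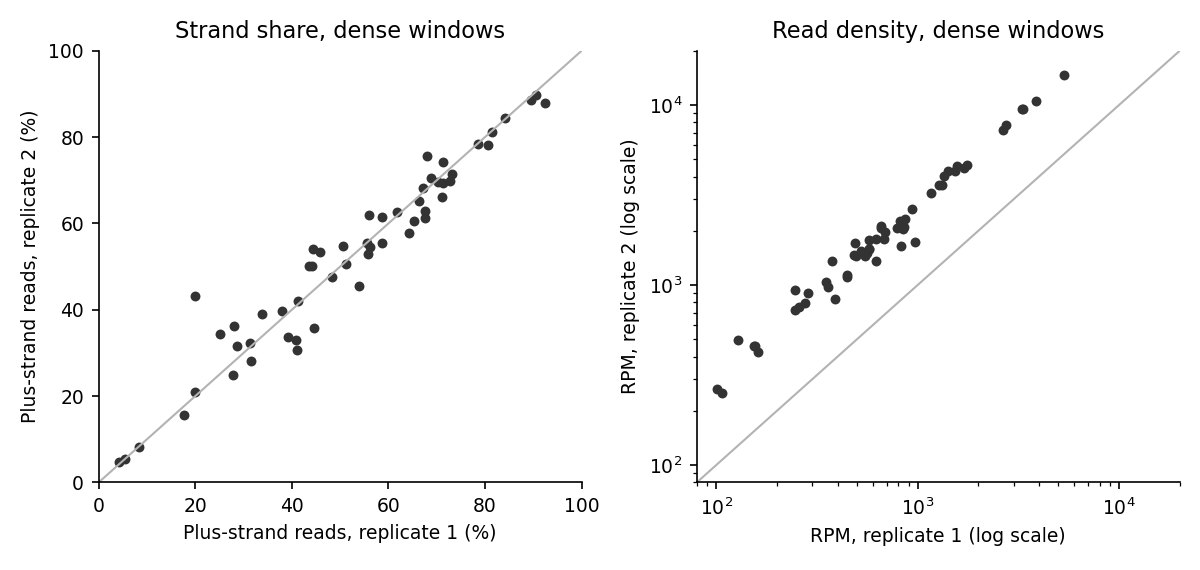
Each point is 1 of the 55 dense windows of supercontig 5, replicate 1 on the horizontal and replicate 2 on the vertical axis: left, percent of reads on the plus strand; right, RPM on log scales; grey lines, equal values. Strand shares lie near the line of equality, and RPM values lie above it by a nearly constant step, a median of 2.80 times.

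Densities of the dense windows kept nearly 1 ratio between the libraries. Replicate 2 had a median of 2.80 times the RPM of replicate 1 (log2 1.48, interquartile range 1.40 to 1.56), from 1.79 to 3.85 times. Dense windows with reads on both strands elsewhere outside the block had a median of 2.67 times (log2 1.42, 1.17 to 1.58, 404 windows). All 551 dense windows elsewhere had a median of 2.52 times and a wider interquartile range, log2 −0.09 to 1.53. The lowest ratio was that of bases 62001 to 63000, and the highest that of bases 46001 to 47000 (128 RPM in replicate 1 and 494 in replicate 2). Across the 55 windows log2 RPM had r = 0.99 and rho = 0.98, as a description of windows that share libraries. The libraries thus differed in how much of the total lay on supercontig 5 far more than in how it was spread there. Of the single positions, 14021 were found in both libraries, 71.7% of the positions of replicate 1 and 24.5% of those of replicate 2, with 83.8% and 62.9% of the reads. Replicate 1 had only 19547 positions and replicate 2 had 57324, so most positions of replicate 2 could not be shared. These shares therefore do not measure how well positions agree.

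Reads of 23 nt were the most frequent on supercontig 5, with 37.8% (37.3 to 38.2) in replicate 1. They held 38.4% (38.3 to 38.6) in replicate 2, and the mean was 38.1% ± 0.453 (SD, n = 2). Shares fell on either side of 23 nt, and 21 nt held more than 25 nt in both libraries. Reads of 22 nt held 23.2% and 22.2%, those of 24 nt 21.7% and 22.2%, those of 21 nt 10.6% and 9.79%, and those of 25 nt 6.73% and 7.37%. Spans of 26 to 28 nt held 13 reads in replicate 1 and 108 in replicate 2. Elsewhere outside the block 23 nt held 25.1% and 33.6%, and 21 nt held 23.8% and 13.9%. The libraries therefore differed by 8.50 percentage points at 23 nt in the rest of the genome and by 0.641 points on supercontig 5. On the first 120 kb of supercontig 4, 23 nt held 31.7% and 37.9%, and on supercontigs 6 and 7, 27.8% and 38.2%. For reads whose best place was single, 23 nt held 38.4% and 38.7% on supercontig 5, 40.4% and 39.3% on that part of supercontig 4, and 38.3% and 38.9% on supercontigs 6 and 7. For such reads the libraries were thus alike at 23 nt in these regions too. Over all the rest outside the block they still differed, with 22.7% and 32.7%.

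**Figure D3:**
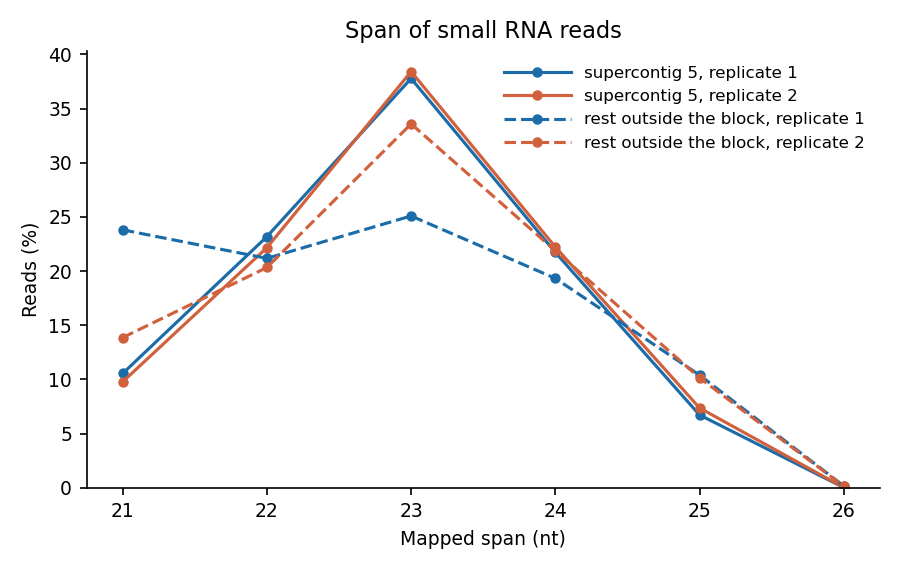
Percent of reads at each mapped span from 21 to 26 nt on supercontig 5 (solid lines) and elsewhere outside the block (dashed lines), 1 colour per library. On supercontig 5 both libraries peak at 23 nt, with 37.8% and 38.4%, while the dashed lines separate at 21 nt, with 23.8% in replicate 1 and 13.9% in replicate 2.

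The share of 23 nt was much the same within supercontig 5. It was 38.4% and 38.6% on the plus strand and 36.9% and 38.1% on the minus strand. Reads with several places had 36.9% and 38.0% at 23 nt. By locus it ran from 37.1% in the longest to 41.6% in the fourth locus in replicate 1, and from 34.0% in the third to 39.9% in the first in replicate 2. In 50 of the 55 dense windows 23 nt led in replicate 1 and in replicate 2. Single abundant positions marked some of the exceptions and extremes. At bases 72001 to 73000, 21 nt led in replicate 1 with 33.8%, and 23 nt had 21.4% and 22.9%. The first window had 31.7% and 57.1% at 23 nt, and in replicate 2 a 23-nt position at bases 148 to 170 held 24.4% of it. With each position counted once, 23 nt held 31.0% and 27.6%, so positions with many reads were more often of 23 nt than the others.

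Positions shared their 5′ ends more often than their 3′ ends. Replicate 1 had 12486 distinct 5′ ends and 15432 distinct 3′ ends on supercontig 5, and replicate 2 had 28879 and 36328. At least 2 spans began at 34.8% and 51.04% of the 5′ ends, and at least 2 spans ended at 21.6% and 39.4% of the 3′ ends. By reads, 73.6% and 91.2% lay at 5′ ends with several spans, and 48.8% and 77.5% at 3′ ends with several spans. Elsewhere outside the block these shares were 81.0% and 83.1% for 5′ ends, and 74.7% and 70.9% for 3′ ends.

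Duplex geometry, in which equally long reads of opposite strands leave 2 unpaired bases at each 3′ end, was more frequent than near alternatives. Dicer is known to leave such ends. Pairs of positions of 1 span were counted by the start on the minus strand minus the start on the plus strand, and a difference of −2 nt was set against the 20 others within 10 nt. Replicate 1 had 787 pairs at −2 nt, against a mean of 482 ± 43.6 (SD over differences, highest 548), a ratio of 1.63. Replicate 2 had 5249 pairs against 3810 ± 220 (highest 4167), a ratio of 1.38. The mean ratio was 1.50 ± 0.180 (SD, n = 2). By number of positions, 8.05% of those of replicate 1 and 18.3% of those of replicate 2 had a partner at −2 nt, against means of 4.93% and 13.3% at neighbouring differences. Full overlap without overhangs lay below the neighbours, at 0.867 and 0.925 times their mean, as did overlap of the span minus 1 nt, at 0.834 and 0.906 times. Differences of −4 nt (0.890 and 0.889 times) and −3 nt (0.925 and 0.947 times) were low as well. The low values were thus not limited to full overlap and overlap of the span minus 1 nt.

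The difference of −2 nt had the highest count of the 21 in replicate 1 and in replicate 2, both within each of the 4 loci and for every span between 21 and 25 nt. By locus the ratios were 1.55 and 1.41 in the first, 1.64 and 1.34 in the longest, 1.66 and 1.52 in the third and 1.79 and 1.51 in the fourth. The third locus rests on 27 pairs in replicate 1. By span the ratio was lowest at 23 nt, with 1.49 and 1.24, and highest at 25 nt, with 2.33 from 68 pairs and 1.69 from 607 pairs. At 23 nt, 287 and 1605 pairs stood against neighbour means of 193 and 1296. At 25 nt those means were 29.2 and 359. A ratio also depends on the size of that mean, so it does not rank the spans by excess pairs. For positions with a single best place the ratio over all spans was 1.70 and 1.41, and for those with several places 1.72 and 1.47. The same measure elsewhere outside the block gave 1.59 and 1.39, on the first 120 kb of supercontig 4 it gave 1.66 and 1.47, and on supercontigs 6 and 7, 1.60 and 1.45. Over all positions the values of supercontig 5 lay within 0.1 of these in both libraries. Over positions with a single best place it had the lowest ratios, against 1.82 and 1.55 elsewhere outside the block, 2.16 and 1.68 on that part of supercontig 4, and 1.89 and 1.56 on supercontigs 6 and 7. The last of these rest on 64 pairs in replicate 1.

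**Figure D4:**
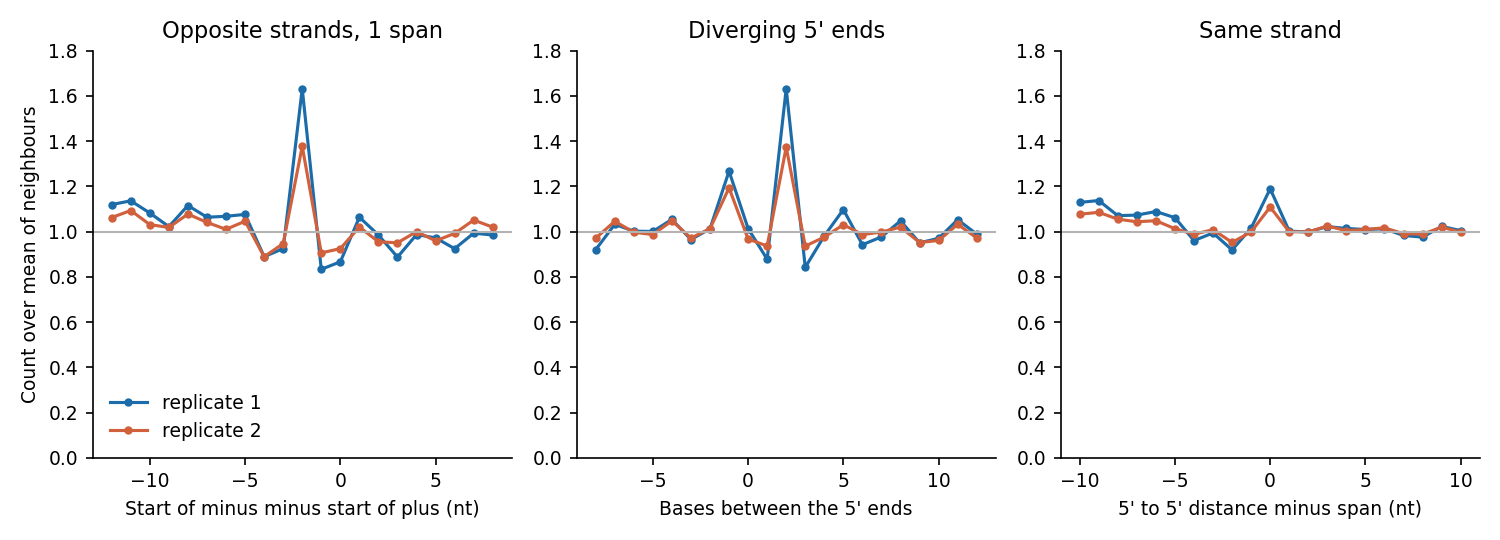
Counts on supercontig 5 divided by the mean of the neighbouring values, 1 line per library: left, pairs of 1 span on opposite strands by difference of start (nt); middle, diverging 5′ ends by the bases between them; right, 5′ ends on the same strand by their distance minus the span of the upstream read (nt). The lines peak at −2 nt (1.63 and 1.38), at 2 bases (1.63 and 1.37) and, within the 10 nt drawn on either side, at 0 nt (1.19 and 1.11).

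Individual pairs show this at the scale of bases. The examples were picked with their values known, by ranking pairs on the mean RPM of the scarcer partner. The plus-strand position at bases 41557 to 41579 (23 nt) had 11 reads in replicate 1 and 147 in replicate 2, and its partner on the minus strand at bases 41555 to 41577 had 11 and 98. The same 5′ end on the plus strand began a 24-nt position, bases 41557 to 41580, with 6 and 107 reads, and its partner at bases 41555 to 41578 had 9 and 102. At 22 nt, bases 40604 to 40625 on the plus strand had 7 and 88 reads, and bases 40602 to 40623 on the minus strand had 13 and 95. In these pairs both strands were about equally frequent. A pair of unequal partners lay at bases 54995 to 55017 on the plus strand, with 82 and 698 reads, and bases 54993 to 55015 on the minus strand, with 2 and 45.

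Of 6041 pairs found when the positions of both libraries were pooled, 552 were complete in both, which is 70.1% of the pairs of replicate 1 and 10.5% of those of replicate 2. Replicate 1 had only 787 pairs and replicate 2 had 5249, so most pairs of replicate 2 could not be complete in both. The plus partner had more reads in both libraries in 192 of the 552 pairs, the minus partner in 114, and 246 were equal or changed between libraries. The partner with more reads had a median of 2.00 times the reads of the other in replicate 1 and 3.52 times in replicate 2. In 48 and 129 pairs it had at least 10 times as many.

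Diverging 5′ ends, one on the minus strand and one to its right on the plus strand, were counted whatever their spans. Their count was highest with 2 bases between them, a moderate excess over the other gaps. Replicate 1 had 1502 at this gap, against 920 ± 80.5 (mean and SD over the 20 gaps within 10), a ratio of 1.63. Replicate 2 had 6093 against 4436 ± 251, a ratio of 1.37. Of 81 gaps, from 40 bases of overlap to 40 bases apart, this one had the highest count in both libraries. A smaller excess lay at 5′ ends that overlap by 1 base, with 1.27 and 1.19 times the mean of the neighbours. Elsewhere outside the block the ratio at 2 bases was 1.66 and 1.43.

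On the same strand, a read was followed at a distance of its own span by another 5′ end more often than at distances within 5 nt of it. Farther away this did not hold, since at 12 nt less than the span the counts were higher, with 4501 in replicate 1 and 23045 in replicate 2. Replicate 1 had 4448 positions with such a follower, against a mean of 3739 ± 142 (SD) over the 10 distances within 5 nt, a ratio of 1.19. Replicate 2 had 22469 against 20262 ± 391, a ratio of 1.11. The mean ratio was 1.15 ± 0.0571 (SD, n = 2). The count was the highest of the 11 distances in both libraries, within all 4 loci and for every span between 21 and 25 nt. It was lowest at 23 nt in both libraries, with 1.14 and 1.06, as was the opposite-strand ratio. By locus it was 1.20 and 1.11 in the first, 1.17 and 1.10 in the longest, 1.29 and 1.15 in the third and 1.31 and 1.12 in the fourth. Elsewhere outside the block it was 1.22 and 1.13. Most followers of a read therefore lie at distances other than its span, and the head-to-tail order is a small excess over a broad background.

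The 5′ ends on opposite strands also rose and fell in steps of 3 nt, a feature noticed in the profile of gaps and then counted. Gaps that differ from 2 bases by a multiple of 3 were taken as steps, from 40 bases of overlap to 40 bases between the ends, leaving out the gaps of 2 bases and of 1 base of overlap described above. The step exceeded the gaps on either side in 20 of 25 cases in replicate 1 and in 25 of 25 in replicate 2. Of the 54 other gaps, 5 and 1 exceeded both of their neighbours. The mean count at steps was 917 in replicate 1 and 4438 in replicate 2, or 1.05 and 1.04 times that at the other gaps. With reads of a single best place these were 24 and 22 of 25, with 1.06 and 1.04 times.

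In each locus the mean count at opposite-strand steps was above that at the other gaps. It was 1.07 and 1.05 times as high in the first, 1.04 and 1.03 in the longest, 1.10 and 1.07 in the third and 1.10 and 1.03 in the fourth. On the same strand, distances from 5′ end to 5′ end that are multiples of 3, from 30 to 90 nt, exceeded both neighbours in 12 of 21 cases in replicate 1 and in 20 of 21 in replicate 2. With reads of a single best place this was 11 and 14 of 21, against 8 and 9 of the 40 other distances. With reads of several places it was 7 and 20 of 21, so the same-strand steps were unclear in replicate 1. Within the loci, 11 to 16 of the 25 opposite-strand steps exceeded both neighbours in replicate 1 and 15 to 25 in replicate 2. Of the 54 other gaps, 6 to 9 and 1 to 10 did so. On the same strand within the loci, 7 to 10 of 21 steps did so in replicate 1 and 13 to 17 in replicate 2. Of the 40 other distances, 6 to 11 and 4 to 9 did so. Same-strand steps within single loci were thus unclear in replicate 1. Over all of supercontig 5 the same-strand means were 1.01 and 1.02 times those of the other distances. The same counts elsewhere outside the block gave 25 of 25 and 25 of 25 on opposite strands (1.06 and 1.04 times) and 21 of 21 and 21 of 21 on the same strand (1.03 and 1.02 times). Which bases lie at the 5′ ends, and whether they fall in reading frames, was not analysed here.

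**Figure D5:**
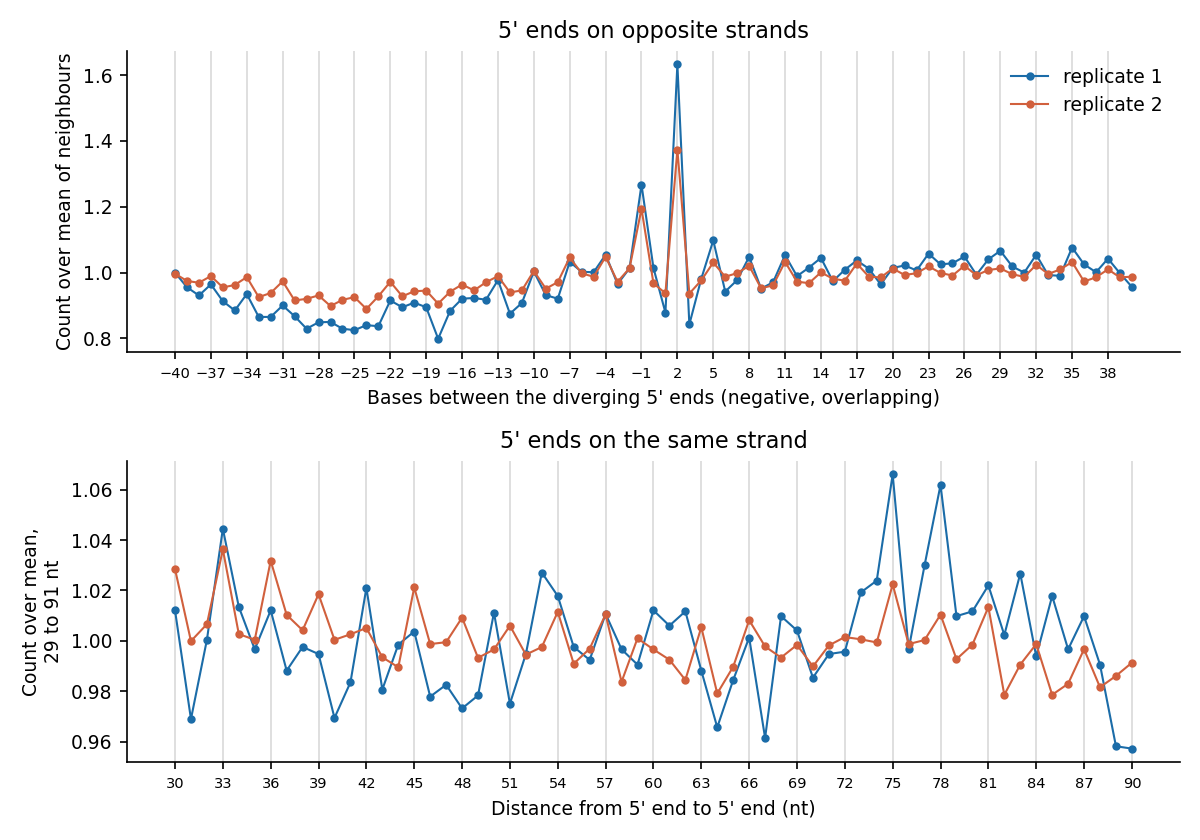
Top, counts of 5′ ends on opposite strands of supercontig 5 by the bases between them, divided by the mean of the gaps within 10 of 2 bases; bottom, counts of 5′ ends on the same strand by their distance in nt, divided by their mean. Vertical grey lines are 3 nt apart; beside the peak at 2 bases, most lines at steps of 3 stand above their neighbours, in 20 and 25 of 25 cases at the top and 12 and 20 of 21 below.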

How the data were processed

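Each deposited file holds 1 aligned place for every distinct sequence of a library. BWA was among the tools, per the submitters' processing notes. Which version, settings and build were used is not given in the sources used here. The number after the hyphen in the name deposited by the authors was read as a raw count of identical reads, without normalization. Scores of the alignments, as deposited, lie between 0 and 37. A score of 0 was read as several equally good places, of which 1 is listed. Bases are counted from 1. The libraries held 3086539 and 3492513 reads in all, with 889190 and 2457514 of 21 to 28 nt outside the block (bases 1 to 37000 of supercontig 3), the total used for RPM.

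Reads were put in windows by their leftmost base. Items named were all loci, the 5 densest windows and 5 leading positions by mean RPM, and the longest stretches without reads; other named items were chosen after their values were seen. The region, window classes, loci, lists and limits were chosen with earlier results of these data known. No p-value was computed. The counting of pairs and spacings was checked on positions moved at random, to which pairs and followers were added. This checks the counting only, because the moved positions do not keep the shared 5′ ends of the real data. Neither sequence nor annotation was joined to the reads. Computations used Python 3.11.15, pandas 2.3.3, numpy 2.4.6 and scipy 1.17.1.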

Additional observations from a re-analysis of the deposited data

Results flagged for a closer look

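Some reads on supercontig 5 were of 19 or 20 nt, below the sizes analysed above. Replicate 1 had 133 of them (0.274% of its reads there), and replicate 2 had 773 (0.208%). They are listed because the windows and pairs do not use them and they exceed 3 reads. That limit was a rule for listing and says nothing about what these reads are. No control library was at hand, and they are the short end of the distribution of spans.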

How the results depend on the processing

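No conditions could be compared because the study has 1 group. Regions are paired by library, but with 2 libraries no paired test was run. With only reads of a single best place, the mean share of reads on supercontig 5 was 20.6%, against 10.3% with all reads, the plus-strand share was 68.9% against 58.0%, and the 23-nt share was 38.6% against 38.1%. With each position counted once, the plus-strand share was 54.0% and the 23-nt share 29.3%. With positions of 2 or more reads, the opposite-strand ratio was 1.86 against 1.50 and the same-strand ratio 1.26 against 1.15. The cause was not tested. Dense windows numbered between 38 (single best place) and 57 (each position once) over the alternatives run, against 55, and 44 with the block kept in, where the mean share of reads was 6.12%. RPM was scaled to the reads kept in each alternative, so 100 RPM could stand for a different number of reads. The share of dense windows elsewhere was not computed for these alternatives. Using single-place reads alone, 31 of the 38 dense windows were both-strand, against 50 of 55. The longest locus then held 81.9% of the reads of supercontig 5, against 69.2%. These last alternatives were chosen after seeing the data. Every alternative run for the opposite-strand and same-strand ratios gave a value above 1. Wider sets of neighbours lowered them, to 1.40 on opposite strands (within 20 nt) and 1.13 on the same strand (within 10 nt). Opposite-strand counts tended to rise away from −2 nt. At −22 nt they were 683 in replicate 1 and 4631 in replicate 2, against 787 and 5249 at −2 nt. Leaving out 1 replicate gave shares of 5.45% to 15.1%, 55 to 56 dense windows, plus-strand shares of 57.7% to 58.3%, 23-nt shares of 37.8% to 38.4%, opposite-strand ratios of 1.38 to 1.63 and same-strand ratios of 1.11 to 1.19. Numbers of positions, pairs and covered bases were lower in replicate 1, which had fewer reads on supercontig 5; they were not compared at equal depth.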
